A study of Rattus norvegicus with 11 samples.

Results

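Of 45220 features measured on 11 arrays of rat hippocampal RNA, 105 had a signal that stepped down from naive rats to sham-operated rats to rats given deep brain stimulation (DBS). These members were chosen from the measured values themselves: the naive mean lay at least 0.5 above the DBS mean on the log2 scale, the naive mean at least 0.15 above the sham mean, the sham mean at least 0.15 above the DBS mean, and the highest DBS array below the lowest naive array. Near-identical rows can be repeated spots of the same probe, so rows less than 0.3 apart in Euclidean distance across the 11 arrays were merged, which left 84 profiles. The order of the groups is therefore a property of the choice, and the group differences below are descriptions without a test.

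The rats were male albino Wistar rats aged 12 weeks. DBS rats received stimulation of the ventrolateral thalamus for 1 hour a day over 14 days (4 arrays), sham rats carried the electrode without current (4 arrays), and naive rats had neither (3 arrays); all groups were handled alike. Each array held the pooled hippocampi of 3 rats, cut from sections at Bregma -2 to -4 and labelled with Cy5, against a common Cy3 reference pooled from hippocampus, thalamus and cortex of all 3 groups. The labels number the naive arrays as out of 4, and 3 naive arrays were analysed here.

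The hippocampus serves memory and spatial navigation, and it responds to seizures, injury and stress with changes in neuronal activity, glia and the birth of neurons in the dentate gyrus. The ventrolateral nucleus of the thalamus is a motor relay that passes cerebellar and basal ganglia signals to motor cortex. High-frequency stimulation of deep nuclei is used clinically against tremor and has been studied against epilepsy. An implanted electrode is also a tissue lesion, which is why a sham group stands between the naive and the stimulated rats.

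Log2 ratios above 0 were read as more RNA in the hippocampus than in the reference pool, because the labels name the hippocampal sample first and give it Cy5. Base 2 was assumed for the logarithm, since no label or header states the base. If the deposited ratio ran the other way, all signs would turn and these members would step up from naive to DBS. The 55 pairs of arrays correlated between 0.732 and 0.932 over all features, so the arrays run in the same direction. Gene names were not used, because the rows of the value table are not tied to the platform's genes, and for the same reason hippocampal marker genes were not checked and no sequence is shown. Members are given as profiles numbered by the size of the difference between naive and DBS, from profile 1 to profile 84. In whole tissue, fewer cells of a type and less RNA per cell cannot be told apart.

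The conditions removed features in turn. The naive mean was at least 0.5 above the DBS mean for 256 features, 166 of these also had the step from naive to sham, and 139 had both steps. Overlap of DBS and naive arrays removed 34 of the 139. Of the 256, 36 missed only the naive to sham step and 16 missed only the sham to DBS step. The mirror-image conditions, for features stepping up from naive to DBS, gave 758 features.

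**Figure D1:**
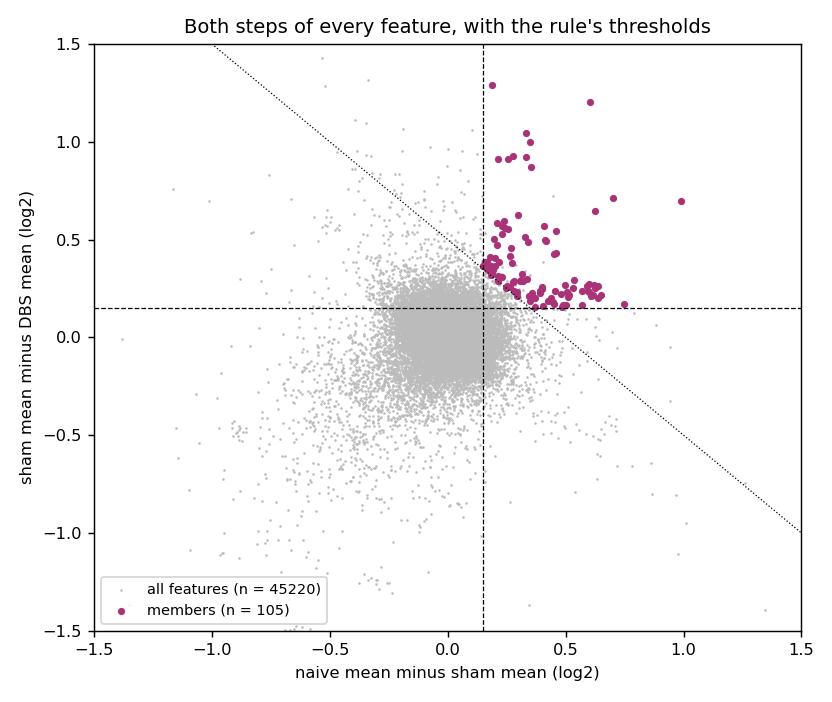
Difference of the naive and sham means (x axis, log2) against the difference of the sham and DBS means (y axis, log2) for every feature (grey) and for the 105 members (purple); dashed lines mark steps of 0.15 and the dotted line a sum of 0.5. The members fill the corner above these lines, grey points inside it failed the overlap condition, and 47 features lie outside the plotted range of 1.5.

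Values close to the thresholds passed from inside to outside without a gap. The smallest naive minus DBS differences among the members were 0.5004 and 0.502, and the nearest features outside reached 0.497 and 0.495. For the naive to sham step the nearest values were 0.151 inside and 0.147 outside. For the sham to DBS step they were 0.155 inside and 0.148 outside, and the outside feature, with means of 2.98 in naive, 2.49 in sham and 2.34 in DBS, lay next to the rows of profile 41 described below. The narrowest gap between the lowest naive and the highest DBS array was 0.00287 among the members, against an overlap of -0.0134 in the nearest feature outside. These distances are smaller than the spread between arrays of a group, whose median SD over the members was 0.103 in naive, 0.132 in sham and 0.154 in DBS.

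Most differences were moderate. Over the 84 profiles the naive mean exceeded the DBS mean by a median of 0.65 on the log2 scale (quartiles 0.55 and 0.86), a 1.57-fold higher level, and the range ran from 1.41-fold to 3.5-fold. At least 2-fold differences were found in 11 profiles, which hold 12 members. The median step was 0.32 from naive to sham and 0.34 from sham to DBS. The same quantities over all 45220 features had medians of 0.02 for naive minus DBS, 0.01 for naive minus sham and 0.01 for sham minus DBS.

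Profile 1, a single row numbered 4623 in the table, had the largest difference. Its log2 ratios were 1.08, 1.07 and 1.29 in the naive arrays, 0.61, 0.29, 0.79 and 0.48 in the sham arrays, and -0.39, -0.39, -0.98 and -0.87 in the DBS arrays. No group overlapped another: the signal stood above the reference in every naive and sham array and below it in every DBS array. Means ± SD were 1.15 ± 0.13 over the 3 naive arrays, 0.54 ± 0.21 over the 4 sham arrays and -0.66 ± 0.31 over the 4 DBS arrays, a 3.5-fold difference between naive and DBS, of which a share of 0.335 lay between naive and sham.

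Profile 2, the single row 3387, was also ordered without overlap, but below the reference throughout, and it had the lowest mean over all arrays of any profile, at -1.79. Its log2 ratios were -0.71, -1.06 and -0.67 in naive, -1.78, -1.99, -1.61 and -1.83 in sham, and -2.66, -2.03, -2.62 and -2.68 in DBS. DBS replicate 2 stood apart from the other 3 DBS arrays and came within 0.04 of the lowest sham array. The naive to sham step of 0.99 was the largest of any profile and exceeded the sham to DBS step of 0.70.

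Profiles 5, 6, 8, 9 and 10 formed a common type among the largest differences: well above the reference in naive and sham, with the larger step between sham and DBS and no overlap between any groups. Profile 5 measured 1.46, 1.39 and 1.68 in naive, 1.20, 1.27, 1.12 and 1.12 in sham, and 0.15, 0.08, -0.02 and 0.32 in DBS, a 2.6-fold difference between naive and DBS. Profile 8 measured 1.67, 1.67 and 1.84 in naive, 1.5, 1.29, 1.42 and 1.37 in sham, and 0.66, 0.49, 0.26 and 0.49 in DBS. Profile 10 measured 1.66, 1.75 and 1.77 in naive, 1.55, 1.59, 1.42 and 1.32 in sham, and 0.56, 0.52, 0.52 and 0.63 in DBS. Sham arrays of these profiles sat just under the naive arrays and DBS arrays far below both. The share of the difference lying between naive and sham was 0.242 in profile 5, 0.258 in profile 6, 0.265 in profile 8, 0.259 in profile 9 and 0.219 in profile 10.

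Profile 9 was a pair of near-identical rows with means ± SD of 1.14 ± 0.15 over the 3 naive arrays, 0.82 ± 0.09 over the 4 sham arrays and -0.08 ± 0.13 over the 4 DBS arrays. Profile 6 had the same order and a wider DBS group, at 0.37, 0.02, -0.59 and 0.11 against 1.26, 1.27 and 1.43 in naive and 1.04, 0.90, 0.99 and 0.96 in sham. Deviations of single arrays from their group means correlated over the 11 arrays (Pearson) at 0.913 between profiles 6 and 8, 0.852 between 8 and 9 and 0.78 between 6 and 9. Profile 10 correlated at only 0.202, 0.15 and 0.037 with profiles 6, 8 and 9, and profile 5 at 0.545, 0.481 and 0.383 with them. The arrays are shared by all profiles, so these correlations are descriptions. Profile 12, the last of the 12 with the largest differences, measured 1.13, 1.31 and 1.24 in naive, 0.78, 0.74, 0.95 and 0.61 in sham, and 0.25, -0.07, 0.24 and 0.49 in DBS, with steps of 0.46 and 0.54.

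**Figure D2:**
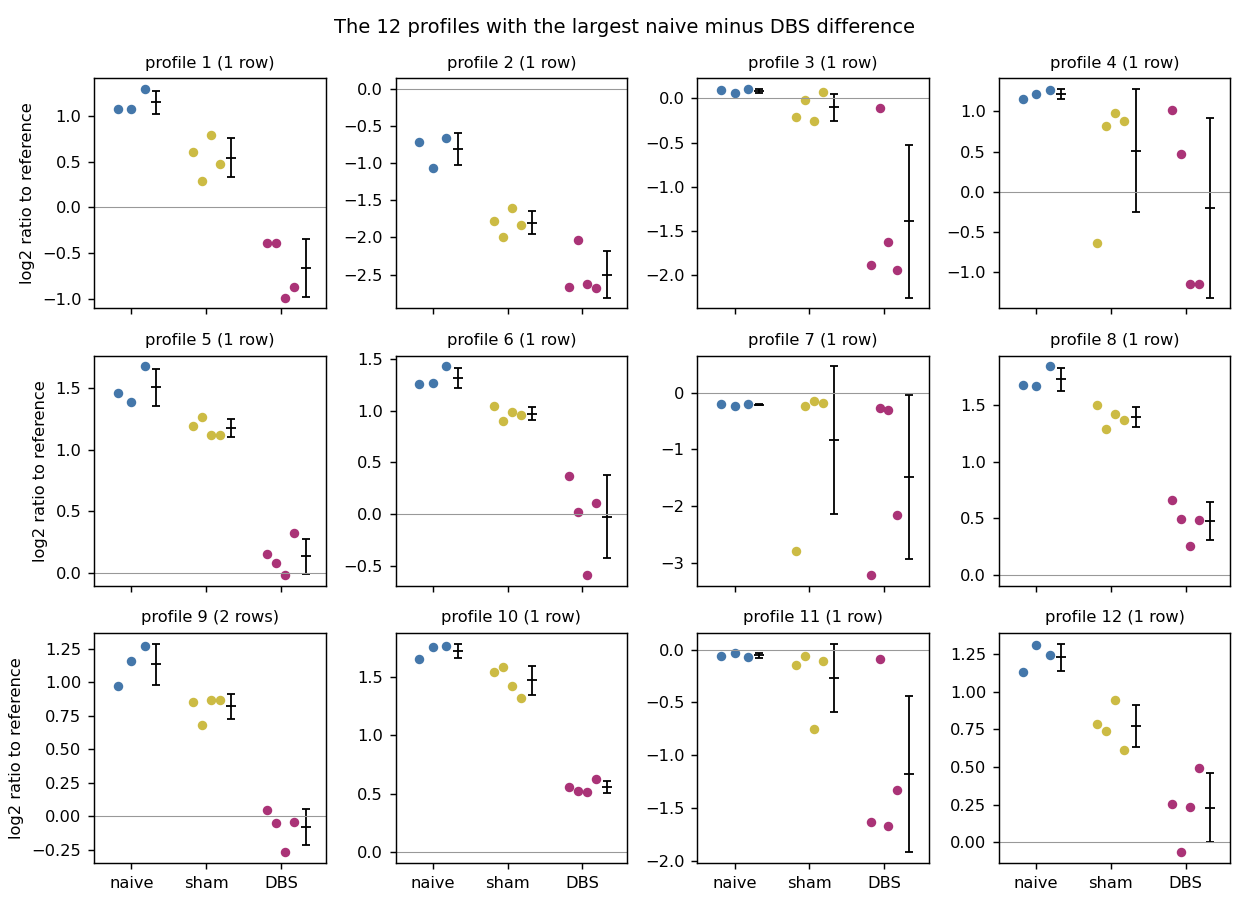
Log2 ratio to the reference on each array (points) for the 12 profiles with the largest difference between naive and DBS means, with the mean and SD of each group beside the points (naive n = 3, sham n = 4, DBS n = 4); each panel has its own y axis. In profiles 1, 2, 5, 6, 8, 9, 10 and 12 no groups overlap. In profiles 3 and 11 DBS replicate 2 lies far above the other DBS arrays. The DBS arrays of profiles 4 and 7 split into a higher and a lower pair. Sham replicate 1 in profiles 4 and 7 and sham replicate 3 in profile 11 lie far below the other sham arrays.

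Profiles 3, 4, 7 and 11 met the rule in another way, through some arrays of a group and not others. Profile 3 measured 0.09, 0.06 and 0.11 in naive, -0.21, -0.02, -0.25 and 0.08 in sham, and -1.89, -0.11, -1.63 and -1.94 in DBS. Profile 11 measured -0.06, -0.03 and -0.07 in naive, -0.15, -0.06, -0.75 and -0.11 in sham, and -1.63, -0.09, -1.67 and -1.33 in DBS. In both, DBS replicate 2 stayed at the sham level while the other 3 DBS arrays lay more than 1 lower, and their array deviations correlated at 0.9 over the 11 arrays.

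In profile 7 the low arrays crossed the group borders. It measured -0.20, -0.23 and -0.20 in naive, -2.79, -0.24, -0.14 and -0.19 in sham, and -3.21, -0.28, -0.30 and -2.15 in DBS. The other 8 arrays of this profile lay between -0.30 and -0.14, so its group means rest on 1 sham and 2 DBS arrays. Without sham replicate 1 its naive minus sham difference turned to -0.02, and without DBS replicate 1 its naive minus DBS difference was 0.70 in place of 1.27, with a sham minus DBS step of 0.07; it left the rule in both cases.

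Profile 4 measured 1.15, 1.22 and 1.27 in naive, -0.63, 0.82, 0.99 and 0.88 in sham, and 1.02, 0.48, -1.15 and -1.15 in DBS. Sham replicate 1 lay below 2 of the DBS arrays. Without sham replicate 3, the naive to sham step was 0.14 in profile 3 and 0.05 in profile 11, under the minimum of 0.15. The naive arrays of these 4 profiles were tight, with SDs of 0.02, 0.06, 0.02 and 0.02, whereas the SDs in DBS were 0.87, 1.12, 1.45 and 0.74.

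A range above 1 over the 4 DBS arrays was found in 10 of the 105 members (9.52%) and in 0.944% of all features. A range above 1 over the sham arrays was found in 4 members (3.81%) and 0.747% of all features, and over the naive arrays in 0 members and 0.241% of all features. The threshold of 1 was set after these values were seen. The overlap condition keeps the naive arrays above all DBS arrays and sets no limit on how far a single DBS array may lie below, so this count is partly a product of the choice. The rule set no limit on the sham spread, but a single low sham array can supply its naive to sham step. The median SD between arrays over the members was 0.132 in sham, 0.103 in naive and 0.154 in DBS. Over all features these SDs were 0.0738, 0.0658 and 0.0834.

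The profile with the most rows was profile 24, with 10 rows whose values on an array differed by a mean SD of 0.0441. It measured 0.86, 0.31 and 0.77 in naive, -0.12, 0.27, -0.03 and 0.05 in sham, and 0.02, -0.12, -0.36 and -0.30 in DBS. With its rows averaged, the naive arrays lay above all sham arrays, by only 0.04 between naive replicate 2 and sham replicate 2, and sham and DBS arrays overlapped. In some of its single rows naive replicate 2 lay below sham replicate 2, for example at 0.22 against 0.29. A share of 0.725 of its 1.78-fold difference lay between naive and sham. Without sham replicate 2, 5 of its 10 rows met the rule.

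Profile 41 had 6 rows and the highest mean over all arrays, 2.59, which is far above the reference in all groups. It measured 2.95, 3.14 and 2.95 in naive, 2.51, 2.64, 2.51 and 2.47 in sham, and 2.24, 2.16, 2.44 and 2.53 in DBS. The naive arrays stood clear of the rest, and sham and DBS overlapped through DBS replicate 4. Another 3 rows within the merging distance of this profile missed the rule, each because its sham to DBS step was under 0.15. Without DBS replicate 2, 1 of the 6 rows met the rule. With quantile normalization the DBS minus naive difference of this profile shrank from -0.67 to -0.43, short of the 0.5 that the rule requires.

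Of the other profiles with several rows, profile 56 had 4, and profiles 45, 62 and 63 had 2 each. With their rows averaged, all of these kept naive, sham and DBS arrays apart. In a single row of profile 63 the lowest sham array, at -0.67, lay below the highest DBS array, at -0.63. Profile 56 had means ± SD of 0.70 ± 0.05 for naive (n = 3), 0.47 ± 0.05 for sham (n = 4) and 0.11 ± 0.10 for DBS (n = 4). In all, 28 of the 105 members belonged to the 7 profiles with several rows, and 77 profiles were single rows. The rows of a repeated set were scattered over the table, with gaps of 98 to 23763 row numbers. Members as a whole showed no run of neighbours: the smallest gap between members was 7 rows, and each of 20 equal blocks of 2261 rows held 1 to 11 members.

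Profiles differed in where the difference lay. The step from sham to DBS was the larger in 50 of the 84 profiles and the step from naive to sham in 34. Among the 11 profiles with at least a 2-fold difference, the sham to DBS step was the larger in 10, profile 2 being the exception, and among the other 73 in 40. Profiles 4 and 7 were near ties, with steps of 0.70 and 0.71 and of 0.63 and 0.65. Their larger step depended on single arrays: without DBS replicate 3 the steps of profile 4 were 0.70 from naive to sham and 0.40 from sham to DBS, and without sham replicate 2 those of profile 7 were 0.83 and 0.45. The share of the difference between naive and sham had a median of 0.455 over profiles (quartiles 0.317 and 0.617). The rule bounds this share, since each step had to reach 0.15.

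The 3 profiles with the largest share between naive and sham were 15, 21 and 24. Profile 15 measured 0.46, 0.12 and 0.35 in naive, -0.35, -0.31, -0.66 and -0.45 in sham, and -0.64, -0.64, -0.46 and -0.71 in DBS, a share of 0.813. Profile 21 measured 0.29, 0.21 and 0.23 in naive, -0.37, -0.48, -0.19 and -0.57 in sham, and -0.75, -0.75, -0.45 and -0.53 in DBS, a share of 0.749. In both, every operated array lay below 0 and every naive array above it, while sham and DBS arrays overlapped. Their sham to DBS steps of 0.17 and 0.22 were close to the minimum: profile 15 left the rule without DBS replicate 4, sham replicate 1 or sham replicate 2, and profile 21 without sham replicate 3. At the other end stood profiles 3, 11 and 10, with shares of 0.127, 0.189 and 0.219.

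**Figure D3:**
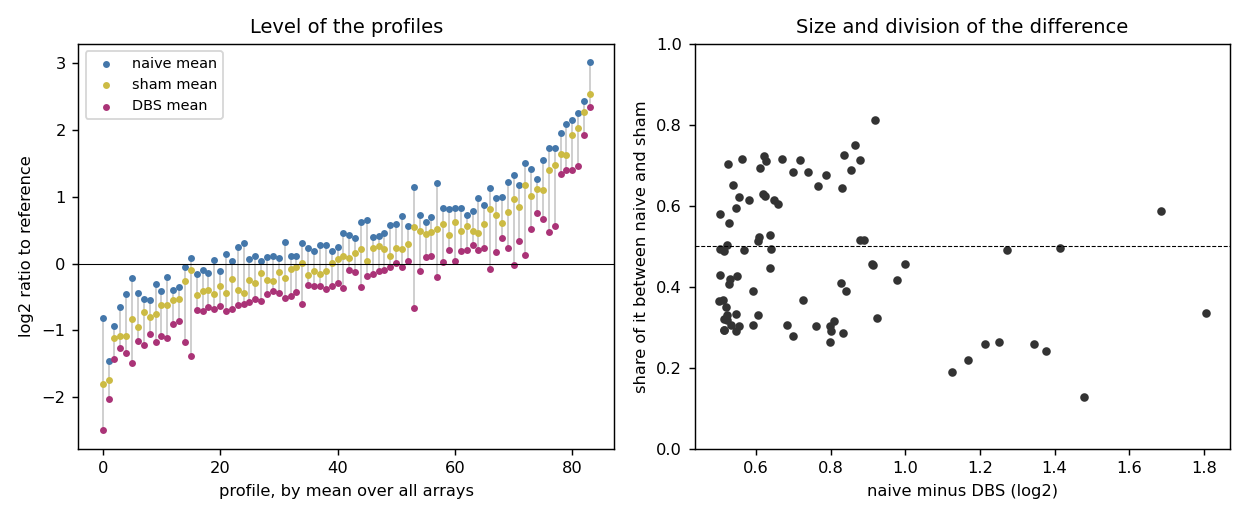
Left, the naive, sham and DBS means of each of the 84 profiles (log2 ratio to the reference), ordered by the mean over all arrays, with a grey line from the DBS to the naive mean. Right, the share of the naive minus DBS difference that lies between naive and sham, against the size of that difference (log2); the dashed line marks 0.5. Profiles span levels from -1.79 to 2.59, and 10 of the 11 profiles at or beyond 1 on the right-hand x axis lie under the dashed line, profiles 4 and 7 only just.

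The level against the reference was not part of the rule. The mean over all arrays was above 0 for 63 of the 105 members (60%) and for 49.98% of all features. Rows that repeat each other are counted separately in the member shares of this paragraph. Profiles 24 and 41, with 10 and 6 rows, both had means above 0. With each profile counted once, the share above 0 came close to that of all features. The median of this mean was 0.13 over the members and 0.07 over the profiles. With the ratio turned, the count above 0 would be 42 of the 105 members, and the profiles counted below as above and under the reference would change places. Members lay further from the reference than features in general, with a median distance of 0.44 from 0 against 0.09 over all features, and 20 members (19.0%) against 2.56% of all features had a mean at least 1 from 0. Among the profiles, 37 crossed from above the reference in naive to below it in DBS, 28 stayed above in both means and 19 stayed below in both. Whether the distance from 0 bears on meeting the rule was not tested.

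Over the members as a whole, the medians of single arrays lay in the order of their groups, which the choice of members largely fixes. The median log2 distance of an array from a member's naive mean was -0.33, -0.36, -0.30 and -0.37 in the 4 sham arrays and -0.66, -0.74, -0.65 and -0.67 in the 4 DBS arrays. No sham array lay nearer to the DBS arrays than to another sham array. As a share of each member's difference between naive and DBS, the sham arrays averaged 0.478 ± 0.0611 (SD, n = 4), the lowest being sham replicate 3 at 0.398 and the highest sham replicate 4 at 0.547.

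**Figure D4:**
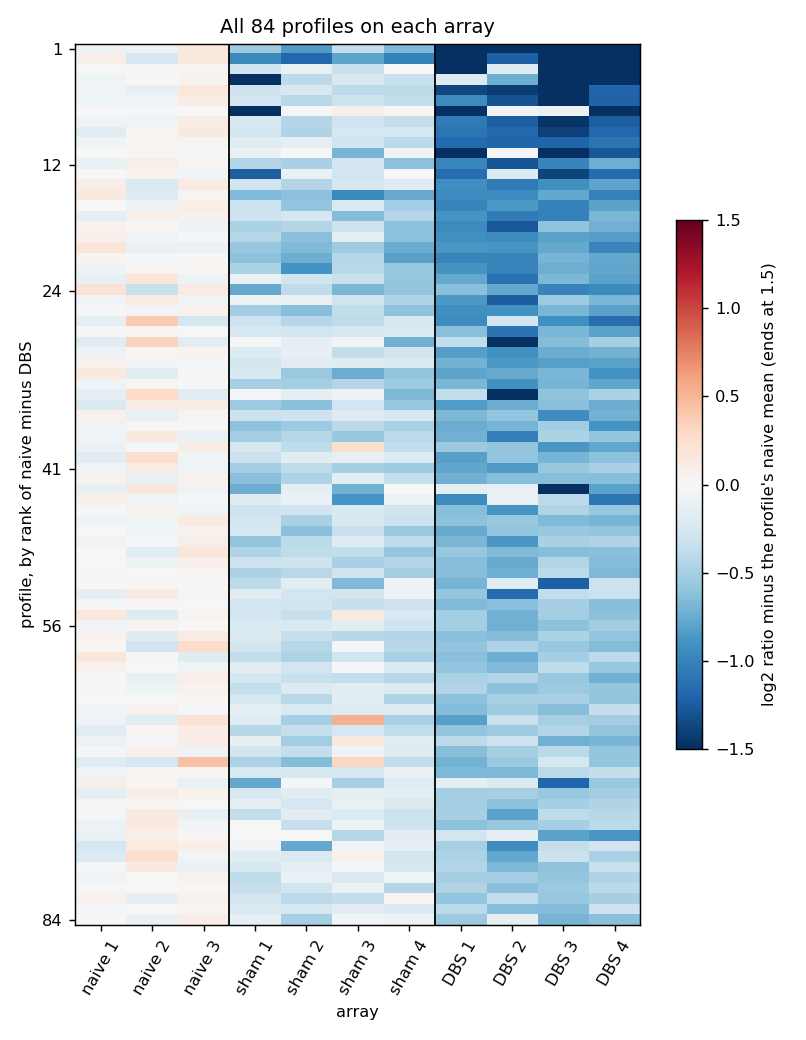
Log2 ratio minus the profile's naive mean (colour, ending at 1.5 in both directions) for the 84 profiles (rows, ordered by the difference between naive and DBS) on the 11 arrays (columns, grouped by naive, sham and DBS). Sham arrays are pale blue and DBS arrays darker in most profiles, and single dark or pale cells in the sham and DBS columns mark the profiles in which arrays of a group disagree.

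By the rule, all naive arrays lay above all DBS arrays in all 105 members, as they did in 11.1% of all features. All naive arrays lay above all sham arrays in 74 members (6.88% of all features) and all sham arrays above all DBS arrays in 56 (4.65% of all features). Full separation in the order naive, sham, DBS was found in 44 members and in 0.573% of all features. With repeated rows averaged, it was found in 37 of the 84 profiles. For 19 members the sham arrays overlapped both other groups. The means of all these comparisons were used to choose the members, so nothing further is read from these counts.

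Group means were also fitted for all features with limma (adjusted p under 0.05 by the Benjamini-Hochberg method over 45220 features). DBS was called lower than naive for 92 members, where 3.57% of all features were called lower. DBS was called lower than sham for 42 members (0.88% of all features), and sham lower than naive for 28 members (0.197% of all features). The rule used all 3 contrasts, so these counts describe how many members clear a test across the whole table and support nothing about them. The count for sham against naive was unstable: omitting sham replicate 1, 2 or 4 gave 11, 15 or 10 members, and omitting naive replicate 1, 2 or 3 gave 8, 18 or 3. The calls over all features dropped in the same fits, from 89 to 22, 38 or 26 and to 17, 26 or 9. For DBS against sham it was 28 without sham replicate 3, and 30 with only those groups in the fit.

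A check on arrays that took no part in the choice was made by holding out the arrays of 1 replicate number in each group, choosing features by the same rule on the other 8 arrays, and reading the 3 arrays held out. The replicate numbers were used only to name the arrays held out. The rounds share arrays and the common reference, and the thresholds of the rule were set with all arrays known. With the replicate 1 arrays held out, 148 features were chosen, of which 89 were among the 105. On the held-out arrays, naive lay above DBS for 146 of the 148 (98.6%), where this held for 52.4% of all features. The full order naive, sham, DBS held for 96 (64.9%), against 20.7% of all features.

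With the replicate 2 arrays held out, 109 features were chosen. Naive lay above DBS for 96 of them (88.1%) against 53.3% of all features, and the full order held for 74 (67.9%) against 23.3%. With the replicate 3 arrays held out, 148 features were chosen. Naive lay above DBS for 134 (90.5%) against 54.9% of all features, and the full order held for 95 (64.2%) against 21.8%. In each round the direction between naive and DBS carried over to the unused arrays for most chosen features, and the place of sham between them for fewer.

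The sizes on the held-out arrays were smaller than on the arrays used for the choice. The median naive minus DBS difference was 0.51, 0.46 and 0.48 on the held-out arrays of replicates 1, 2 and 3, against 0.65, 0.69 and 0.68 on the arrays used, and 0.01 to 0.02 over all features. The step from naive to sham shrank from 0.34, 0.34 and 0.33 to 0.17, 0.21 and 0.22, and the step from sham to DBS from 0.32, 0.33 and 0.29 to 0.31, 0.18 and 0.23. Counting each of the 90, 86 and 95 chosen profiles once, the full order held for 67.8%, 65.1% and 58.9%. Naive lay above DBS for 97.8%, 84.9% and 87.4% of these profiles. Their median naive minus DBS differences were 0.50, 0.41 and 0.48. The median steps were 0.19, 0.22 and 0.19 from naive to sham and 0.34, 0.14 and 0.29 from sham to DBS. Each held-out round compares 1 array per group, so these are shares of features within 3 arrays and carry no p-value.

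**Figure D5:**
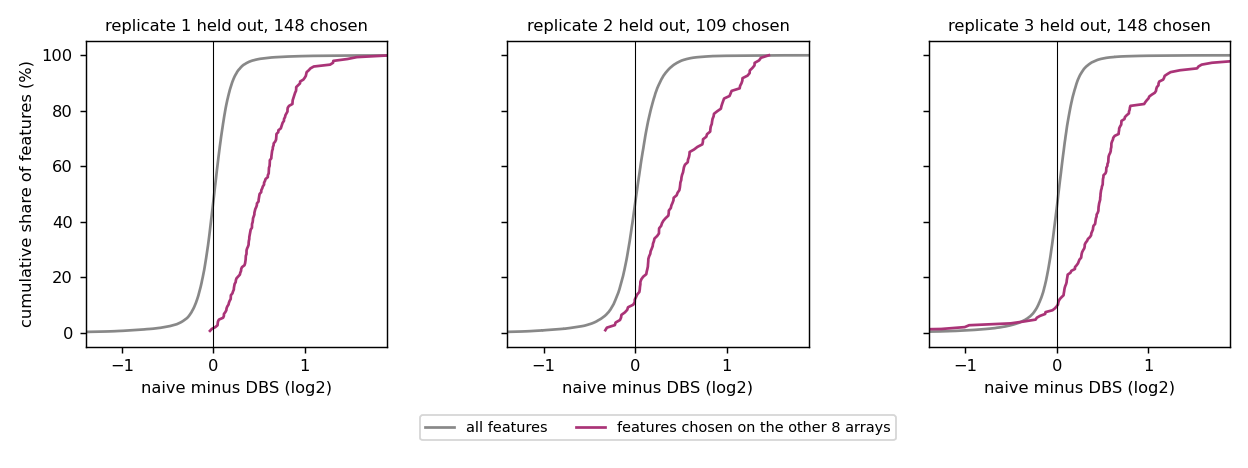
Cumulative share of features (y axis, percent) by the difference of the naive and DBS arrays held out (x axis, log2), for all features (grey) and for the features chosen by the rule on the other 8 arrays (purple), with 148, 109 and 148 features chosen. The purple curves lie to the right of the grey ones, with medians of 0.51, 0.46 and 0.48, and few of the chosen features lie below 0.

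Leaving out single arrays and applying the rule again gave 95 to 157 features. The highest count came without naive replicate 1, when 100 of the 105 members were kept, and the lowest without sham replicate 2, when 85 were kept. Only 47 members met the rule in all 11 such settings, and in 34 profiles every row did so. Of the 12 profiles with the largest differences, profiles 1, 2, 4, 5, 6, 8, 9, 10 and 12 met it in all 11, and profiles 3, 7 and 11 did not.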

How the data were processed

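RNA from pooled rat hippocampi was measured on 11 two-channel Agilent arrays. The deposited values are log2 ratios, 1 for each of 45220 numbered features on each array, with no missing entry; their array medians lie between -0.00589 and 0.00535, near 0 as deposited. Per the labels' protocols, a low-input kit amplified and labelled the RNA, with Cy3 in the reference and Cy5 in the hippocampal sample. No source used here gives the background correction, normalization, spot filters, scan dates or log base, so no batch and no signal over background was examined, and the number of arrays limits the precision.

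Groups came from the sample titles. The members and their rule, the merging distance and the comparisons were chosen with earlier results of these data known. Every feature was fitted with limma (version 3.58.1, under R 4.3.3) as 3 group means over the 11 arrays (lmFit, eBayes, two-sided, Benjamini-Hochberg adjustment), so the groups share an estimate of the spread; where groups varied unequally, SEs can be too small. The limma code was tested on simulated data with known changes between DBS and naive, most of which it recovered. The simulation gave all groups equal spread and did not cover the rule, the merging or the held-out rounds. Merging, held-out arrays and figures used Python 3.11.15 with numpy 2.4.6, pandas 2.3.3, scipy 1.17.1 and matplotlib 3.10.9. Rows were merged by single linkage.

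The profiles described are the 12 with the largest naive minus DBS difference, the profile with the most rows, and those with the highest and lowest mean. Also described are the 3 with the largest and the 3 with the smallest share between naive and sham, and the features nearest the thresholds. The count of members with a wide DBS range was added after the values were seen. So were the other profiles with several rows, which the checks on 16 described profiles left out. Row numbers are given for the first 2 profiles only, since the files pair no row with a gene. The labels call the arrays biological replicates, each a pool, so rat-to-rat spread within a pool was not measured. Alternatives were other scalings, thresholds, merging distances, fits and arrays left out.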

Additional observations from a re-analysis of the deposited data

Results flagged for a closer look

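Single arrays of 16 described profiles and of the median over the members were set against the other 3 arrays of their group of 4. The 3 naive arrays were too few for this. Of 34 groups examined, 6 held an array whose gap to its nearest neighbour exceeded Dixon's 95% critical share of the group's range, where chance gives about 1 in 20 for values that were not chosen. The rule used these DBS and sham values and the profiles were picked for large differences, so that rate does not hold for them and the 6 arrays are given as descriptions. In profile 2, DBS replicate 2 stood at a log2 ratio of -2.03, with the other DBS arrays between -2.68 and -2.62. In profile 3, DBS replicate 2 stood at -0.11, with the others between -1.94 and -1.63. Sham replicate 1 stood at -0.63 in profile 4, with the other sham arrays between 0.82 and 0.99, and at -2.79 in profile 7, with the others between -0.24 and -0.14. Sham replicate 2 stood at 0.68 in profile 9, with the others between 0.86 and 0.87. Sham replicate 3 stood at -0.75 in profile 11, with the others between -0.15 and -0.06.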

How the results depend on the processing

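The rule gave 103 features with arrays centred on their medians and 91 with quantile normalization, of which 88 were among the 105. A minimum of 0.4 for naive minus DBS gave 188 features, and no overlap between any groups gave 44. Merging distances of 0.2 and 0.4 gave 93 and 69 profiles, against 84 at 0.3. Leaving out single arrays gave 95 to 157 features by the rule, 85 to 96 members called lower in DBS than naive, 28 to 39 lower in DBS than sham and 3 to 34 lower in sham than naive (limma). It gave 44 to 51 members in full order, a median share of 0.466 to 0.52 for sham, and a median DBS minus naive difference of -1.31 to -1.14 over 16 described profiles. For sham against naive, array weights gave 55 members and the replicate block 15, against 28, while the calls over all features were 196 and 36, against 89; the cause was not tested. The replicate block gave 92 members for DBS against naive and 33 for DBS against sham. Correlations of deviations ran from -0.122 to 0.15 between same-numbered arrays and from -0.211 to 0.2 between differently numbered ones. Whether arrays of the same number shared a batch was not tested. The held-out rounds gave 64.2% to 67.9% in full order. With each profile counted once, the median over the members moved to -0.27 in DBS replicate 1, 0.0595 in sham replicate 2, 0.38 in naive replicate 1 and 0.42 in naive replicate 3, from -0.02, 0.24, 0.59 and 0.63. None of these 16 profiles turned its direction between naive and DBS under other scalings or without any single array. With quantile normalization the DBS minus naive difference of profile 41 shrank from -0.67 to -0.43.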

Other observations

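Within the sham group, sham replicate 3 had the highest of the 4 values in 48 of the 105 members (45.7%), against 27.1% of all features. Within the DBS group, DBS replicate 2 had the lowest value in 43 members (40.95%), against 29.9% of all features. Rows that repeat each other are counted separately in these shares. For the 758 features that step up by the mirror-image conditions, the median distance from the naive mean was 0.47, 0.51, 0.28 and 0.38 in sham replicates 1 to 4 and 0.87, 0.90, 0.87 and 0.77 in DBS replicates 1 to 4. Sham replicate 3 was the sham array nearest to the naive level in both sets of features. Between pairs of the 84 profiles, the correlation of deviations from the group means had a median of 0.0588, and it was above 0.7 for 5.25% of pairs, against 2.28% of pairs among 2056 features taken at even spacing from the table; all pairs share the same 11 arrays.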
